A study of Rattus norvegicus with 11 samples.

Results

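The comparison described here is that of day 17 against day 7 in the feeder-free arm of a conversion of rat embryonic stem cells to hypoblast stem cells, which the labels name cHypoSCs. It rests on 4 of the 11 arrays of the series, the 2 arrays of day 7 and the 2 of day 17, taken by their labels. The comparison itself was chosen with earlier results of these data known. All cells came from a single embryonic stem cell line, DAc2. Before conversion the cells of the feeder-free arm had been kept, on laminin, in N2B27 medium that held 3 µM of CHIR99021, an inhibitor of GSK3, 2 µM of the MEK inhibitor PD0325901 and 5 ng/mL of human BMP4. Conversion took place in a maintenance medium for rat multipotent adult progenitor cells with LIF, EGF, PDGF and 2% serum, and cells were taken as day 0 (1 array) and at days 7, 17 and 32 (2 arrays each). A second arm, with 1 array on each of the same days, started from DAc2 cells kept on mouse embryonic fibroblasts with the same CHIR99021 and PD0325901 at 0.5 µM, for which the labels name no BMP4. It is used here to compare the change of the feeder-free arm with that of independent cultures, and the labels do not say whether feeder cells were still present during conversion. Feeder cells, PD0325901 and BMP4 differed together before conversion, and their parts cannot be told apart. The replicates are called biological in the labels, which do not say whether they were separate cultures, and p values then measure only the spread between these samples, which may be technical.

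The hypoblast, or primitive endoderm, is the layer next to the epiblast of the blastocyst. It is specified by GATA factors and by FGF and PDGF signals, and it forms the visceral and the parietal endoderm of the yolk sacs, epithelia that lay down basement membrane and take up nutrients. The trophoblast is the outer lineage of the blastocyst. It forms the fetal part of the placenta, is set up by transcription factors such as Elf5, Gata3 and the AP-2 proteins, and in rodents secretes prolactin relatives, proteases and steroid hormones.

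Expression was read on Affymetrix Rat Gene 1.0 ST arrays as log2 values per probe set, and 14506 genes were tested. Arrays of the same day correlated at 0.997 (day 7) and 0.998 (day 17) across genes, and the means of the 2 days at 0.981. The median absolute difference of a gene was 0.13 between the arrays of day 7, 0.09 between those of day 17 and 0.17 between the means of the days. Means of 2 arrays carry less noise than single arrays, so the last value is not directly comparable with the others. A floor for the values came from 1240 odorant and pheromone receptor genes, which are mostly silent outside sensory cells. They had a median of 6.39, and 8.07 stood above 95% of them. Where either day of a gene was under 8.07 its true change may be larger than the one read. The median gene was 0.11 higher at day 17, and among the 1451 brightest genes the median was 0.19 higher, with 0.13 when the first day 7 array was left out and 0.02 after a further quantile normalization. Small rises of bright genes have to be read against that shift. With so few arrays the precision of every value is limited.

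Of the 14506 genes 3458 changed in limma at an adjusted p under 0.05, 2391 upward and 1067 downward. Thus 16.5% of all genes rose and 7.36% fell, and every share given below for a group of genes is to be read against these. The surplus of rises lay among small changes and depended on scaling and on 1 array, with 1739 rises and 1362 falls after a further quantile normalization and 1282 and 999 without the first day 7 array. In a joint estimate over both arms, with terms for day and culture, 1850 genes passed. Among those that then did not were Gata4, Gata6, Sox17, Foxa2, Pdgfra, Stra6, Rdh10, Akr1c14, Col4a1, Vim, Myc, Pkp2, Procr, Plat and Adm, all described below. That estimate fits 1 change to both arms, and changes of unlike size in the arms widen its spread. A gene that did not pass there may still have changed in each arm. Among changes of at least 1 on the log2 scale (at least 2-fold) the order was the opposite: 66 genes rose (0.455% of all) and 327 fell (2.25%). Of those falls 105 were of at least 2 and 13 of at least 4, whereas 4 rises were of at least 2. In 81 of the 327 falls the day 17 mean lay below 8.07, and in 5 of the 66 rises the day 7 mean did.

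**Figure D1:**
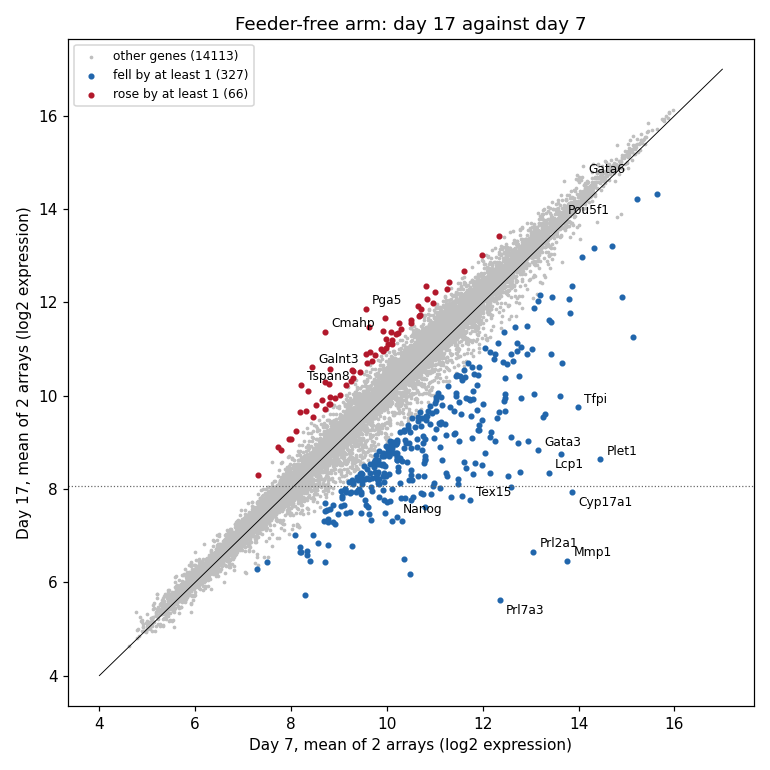
Mean log2 expression of 14506 genes at day 7 (horizontal axis) and day 17 (vertical axis) in the feeder-free arm, each the mean of 2 arrays. Blue points are the 327 genes that fell by at least 1, red points the 66 that rose by at least 1, the line marks equal values and the dotted line the 8.07 below which 95% of receptor genes lay; the falls reach much farther from the line than the rises.

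The promoters of the 3 genes with the largest falls and of the gene with the largest rise that have an entry in the RefSeq promoter table of the assembly GRCr8 are shown because these genes mark what was lost and what was gained. Each run is the 250 bases before the transcript start, read 5′ to 3′ on the strand of the gene. Capitals mark matches to TGANTCA, a loose form of the motif TGA(C/G)TCA bound by FOS and JUN proteins, here called an AP-1 match. The loose form was searched on both strands with the GATA motifs AGATAA and TGATAA and the AP-2 motif GCCNNNGGC.
Mmp1 (chr8:12943203-12943452, plus strand): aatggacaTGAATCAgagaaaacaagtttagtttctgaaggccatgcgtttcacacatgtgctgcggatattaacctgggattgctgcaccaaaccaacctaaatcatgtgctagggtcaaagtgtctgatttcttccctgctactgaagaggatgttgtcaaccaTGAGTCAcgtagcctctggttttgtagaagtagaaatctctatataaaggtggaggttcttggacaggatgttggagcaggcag
Prl7a3 (chr17:37294314-37294563, plus strand): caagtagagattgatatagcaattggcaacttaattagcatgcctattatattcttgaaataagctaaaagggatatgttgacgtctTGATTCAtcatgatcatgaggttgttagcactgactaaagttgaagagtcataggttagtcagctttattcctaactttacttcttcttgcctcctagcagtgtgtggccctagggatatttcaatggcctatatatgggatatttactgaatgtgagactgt
Plet1 (chr8:59738389-59738638, plus strand): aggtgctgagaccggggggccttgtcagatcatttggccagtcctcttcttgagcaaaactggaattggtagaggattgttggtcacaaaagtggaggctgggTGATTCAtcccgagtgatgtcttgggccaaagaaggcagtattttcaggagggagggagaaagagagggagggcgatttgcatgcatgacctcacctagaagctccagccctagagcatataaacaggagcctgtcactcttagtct
Cmahp (chr17:41067931-41068180, minus strand): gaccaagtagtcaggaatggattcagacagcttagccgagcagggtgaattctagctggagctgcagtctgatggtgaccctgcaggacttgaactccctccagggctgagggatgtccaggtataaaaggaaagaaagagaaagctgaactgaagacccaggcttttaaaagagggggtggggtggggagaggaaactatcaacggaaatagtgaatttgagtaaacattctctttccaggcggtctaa
The Mmp1 promoter held 2 AP-1 matches, those of Prl7a3 and Plet1 held 1 each, and that of Cmahp held none. Of the marked stretches only TGAGTCA in Mmp1 had C or G in the middle. None of the 4 promoters held a GATA or an AP-2 match. Of the 15 genes with the largest falls 8 had an entry, and 3 of these 8 held an AP-1 match, the same 3 printed above. Of the 15 largest rises 14 had an entry and 2 of the 14 (Sh3gl3 and Krt4) held one, against 6.36% of all 27457 promoters. In the trophoblast and placental genes that fell, 4 of the 21 with an entry (Plet1, Prl7a3, Mmp1 and Mmp12) held one, and 3 of these are again the printed genes. A GATA match was found in 2 of these 21, in 1 of the 8 falls and in 3 of the 14 rises (16.6% of all promoters). An AP-2 match was found in 4 of the 21, in 1 of the 8 and in 2 of the 14 (13.1% of all). A match is a run of letters and no evidence of binding.

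The regulators of the trophoblast fell together. Of 22 genes on that list 17 were measured, and 12 of the 17 fell, 1 rose and 4 did not pass. Their median difference was -2.05, against 0.11 for all genes, and the count of falls was 12 also after a further quantile normalization and without any 1 of the feeder-free arrays of days 7 to 32. In the joint estimate over both arms 11 fell and 1 rose, with a median of -1.53. In bulk RNA a lower share of cells that express a gene and a lower level in each cell cannot be told apart, here or in any group below.

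Plet1, a surface protein of the placental trophectoderm, stood at 14.38 and 14.52 at day 7 and 8.51 and 8.76 at day 17. It fell by 5.82 ± 0.13 (SE, adjusted p = 1.84e-12), or 56.4-fold. The 2 days lay far apart, and both day 17 arrays were also below the day 0 array at 10.21. Elf5, a transcription factor that maintains trophoblast stem cells, was at 12.59 and 12.61 at day 7 and 8.13 and 7.95 at day 17 and fell by 4.56 ± 0.18. Its day 0 array read 9.04 and its day 32 mean 8.13 ± 0.56 (SD, n = 2), so that the highest values were those of day 7. Gata3, a zinc finger factor of the early trophectoderm, fell by 4.33 ± 0.11, from 13.16 ± 0.07 (SD, n = 2) to 8.83 ± 0.15 (SD, n = 2). Hand1, needed for trophoblast giant cells, was at 13.17 and 13.42 at day 7 and 9.69 and 9.54 at day 17 and fell by 3.68 ± 0.11. Both AP-2 genes measured came down, Tfap2a by 3.47 ± 0.12 and Tfap2c by 2.70 ± 0.12. They differed in where they started, since Tfap2c had stood as high at day 0 (12.48) as at day 7 (12.34 ± 0.19 (SD, n = 2)), whereas Tfap2a had been at 9.23.

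Among the other members Plac1, a membrane protein of the placenta, fell by 2.47 ± 0.10 and remained at 9.03 ± 0.02 (SD, n = 2), above its day 0 value of 7.19. Gata2, which works beside Gata3 in the trophoblast, fell by 2.21 ± 0.12 and was back at 10.39 ± 0.23 (SD, n = 2) at day 32. Satb1, a chromatin organizer of trophoblast stem cells, fell by 2.05 ± 0.12, Ets2 by 1.58 ± 0.10, the imprinted spongiotrophoblast factor Ascl2 by 1.26 ± 0.11 and Dlx3 by 0.83 ± 0.11. Cdx2, the factor that starts the trophectoderm programme, did not pass, at 0.18 ± 0.10 (adjusted p = 0.213). Ovol2, Msx2 and Gcm1, the factor of the labyrinth, did not pass either, with differences of -0.08 ± 0.10 (adjusted p = 0.602), 0.00 ± 0.11 (adjusted p = 0.99) and 0.05 ± 0.10 (adjusted p = 0.749). The 1 rise was that of Tpbpa, a spongiotrophoblast marker, by 0.44 ± 0.10, with all 4 values below the 8.07 floor, and it did not pass without the first day 7 or the second day 17 array.

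Secreted products of the placenta showed the largest falls of the whole comparison. Of 39 listed hormones, proteases and related genes 36 were measured, of which 16 fell, 1 rose and 19 did not pass. The list median was only -0.09. In the joint estimate over both arms 11 fell and 1 rose. Mmp1, an interstitial collagenase, was at 13.76 and 13.77 at day 7 and 6.38 and 6.53 at day 17. That fall of 7.31 ± 0.10 (adjusted p = 1.36e-14), 158-fold, ended at the level of the day 0 array (6.20) and of day 32 (6.40 ± 0.08 (SD, n = 2)). Prl7a3 and Prl2a1, hormones of the placental prolactin family, behaved alike. Prl7a3 was at 12.36 and 12.34 at day 7 and 5.61 and 5.63 at day 17 and fell by 6.73 ± 0.10; Prl2a1 was at 12.91 and 13.19 at day 7 and 6.80 and 6.51 at day 17 and fell by 6.40 ± 0.13. All 3 genes ended far below 8.07, so that their folds may be larger than read.

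Within the prolactin family 21 genes were measured, of which 8 fell and none rose at an adjusted p under 0.05 in limma, nor was any higher at an unadjusted p under 0.05 (0 of 21). Prl3b1, placental lactogen II, fell by 3.01 ± 0.24, with 9.76 and 10.87 at day 7 and 7.36 and 7.25 at day 17. Prl7b1 fell by 2.57 ± 0.22, Prl4a1 by 2.27 ± 0.14, Prl5a1 by 1.55 ± 0.14, Prl8a9 by 1.54 ± 0.11 and Prl3d4, a placental lactogen I gene, by 0.83 ± 0.11. In 14 of the 21 genes all 4 arrays read below 8.07, so that for most of the family no expression above the floor was seen on either day. Members of this family, and of the serpin and Ceacam families, are close in sequence, and a probe set of 1 gene may pick up RNA of another. Serpinb9d, a protease inhibitor of the serpin B9 cluster, was at 10.45 and 10.50 at day 7 and 6.28 and 6.08 at day 17 and fell by 4.29 ± 0.12, and its relative Serpinb9 fell by 2.79 ± 0.10. Ceacam9, an adhesion molecule of the placenta, fell by 3.38 ± 0.16 and Ceacam3 by 1.20 ± 0.11. The gelatinase Mmp9, an enzyme of trophoblast invasion, fell by 3.02 ± 0.11, to 7.90 ± 0.15 (SD, n = 2), and the elastase Mmp12 by 0.86 ± 0.11. Ctsq, a placental cathepsin, fell by 0.83 ± 0.10, from 7.05 ± 0.08 (SD, n = 2), which was itself below 8.07. The rise was that of Psg19, by 0.33 ± 0.11 below the floor; no gene of the list rose after a further quantile normalization, without the first day 7 array or without the first day 17 array.

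Several steps from cholesterol to sex steroids came down with the placental genes. Of 10 measured genes (17 listed) 5 fell and 1 rose, and 2 rose without the second day 17 array. In the joint estimate over both arms 4 fell and 0 rose, with a median of 0.15. The list median was -0.24 in the feeder-free arm and 0.18 in the feeder arm. Star, which carries cholesterol into mitochondria, fell by 3.23 ± 0.11, with 12.25 and 12.24 at day 7 and 9.03 and 9.02 at day 17. Cyp11a1, which makes pregnenolone there, fell by 1.38 ± 0.11, from 9.48 ± 0.01 (SD, n = 2) to 8.11 ± 0.18 (SD, n = 2). Hsd3b2, which turns pregnenolone into progesterone, was at 12.65 and 12.91 at day 7 and 8.29 and 8.45 at day 17 and fell by 4.41 ± 0.11. Cyp17a1, which opens the way to androgens, showed the largest change of the 4, with 13.85 and 13.89 at day 7 and 7.83 and 8.02 at day 17, a fall of 5.94 ± 0.10 or 61.5-fold. On the day 0 array the 4 genes had read 8.69, 8.49, 8.11 and 7.75 in the same order, close to where they ended. Hsd17b2, which inactivates estradiol and testosterone, fell by 0.51 ± 0.12. Akr1c14, a 3α-hydroxysteroid dehydrogenase, went the other way. It stood at 13.22 and 13.32 at day 7 and 13.83 and 13.94 at day 17, rose by 0.62 ± 0.10 and was at 12.87 ± 0.05 (SD, n = 2) at day 32, against 8.02 at day 0.

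**Figure D2:**
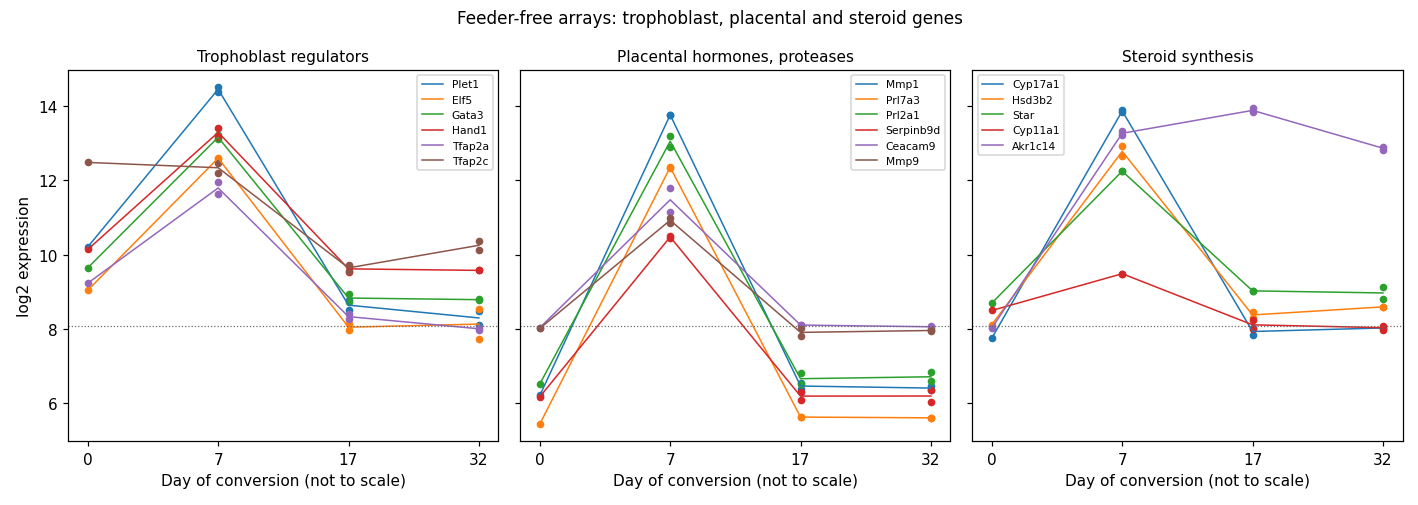
Log2 expression on each feeder-free array (points) and the mean of each day (lines) for trophoblast regulators, placental hormones and proteases, and steroid synthesis genes at days 0, 7, 17 and 32; day 0 has 1 array and the other days 2, and the dotted line marks 8.07. Most of these genes peak at day 7 and lie near their day 0 level at day 17, while Tfap2c is as high at day 0 as at day 7 and Akr1c14 stays high.

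The other genes among the 15 largest falls belonged to several cell types. Cdh5, the cadherin of endothelial junctions, was at 13.62 and 13.64 at day 7 and 8.73 and 8.77 at day 17 and fell by 4.88 ± 0.10. Lcp1, an actin-bundling protein best known from leukocytes, was at 13.30 and 13.46 at day 7 and 8.12 and 8.58 at day 17 and fell by 5.02 ± 0.14. These were 2 of the 3 falls among 14 endothelial and blood genes, of which 2 rose: the receptor gene Tek by 1.15 ± 0.12 and Runx1 by 0.53 ± 0.10. Ptprc, the common leukocyte antigen, read 7.23 and 7.18 at day 7 and 7.27 and 7.31 at day 17, below the floor on all 4 arrays, and Pecam1, an endothelial adhesion molecule, differed by -0.08 ± 0.10 (adjusted p = 0.593). Slc38a3, a glutamine transporter, was at 12.42 and 12.63 at day 7 and 8.21 and 8.34 at day 17 and fell by 4.25 ± 0.11. Sbsn, suprabasin, a secreted protein of stratified epithelia, fell by 3.92 ± 0.10, from 12.95 ± 0.04 (SD, n = 2) to 9.03 ± 0.12 (SD, n = 2). Of the 15 largest falls 14 had a day 0 value below both day 7 arrays, and the exception was Tex15, described with the germline genes. The same held for 14 of the 15 largest rises, so that this order does not set the falls apart. Day 0 rests on 1 array, and the falls were chosen by high day 7 values against day 17. How many of all genes showed this order was not counted.

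Coagulation genes split. Tfpi, the inhibitor of the tissue factor pathway, was at 14.01 and 13.97 at day 7 and 9.74 and 9.76 at day 17 and fell by 4.24 ± 0.10, and the urokinase gene Plau fell by 3.71 ± 0.10, with 11.54 and 11.58 at day 7 and 7.86 and 7.85 at day 17. The endothelial protein C receptor Procr fell by 1.70 ± 0.12, tissue plasminogen activator Plat by 1.46 ± 0.10 and the inhibitor Serpine2 by 0.53 ± 0.11. Against these 5 falls among 19 measured genes stood 7 rises, all smaller than 1. F3, the tissue factor that Tfpi inhibits, was at 14.51 and 14.65 at day 7 and 14.95 and 15.08 at day 17, a rise of 0.43 ± 0.10, thrombomodulin (Thbd) rose by 0.69 ± 0.10 and the urokinase receptor Plaur by 0.51 ± 0.10. The 7 rises were 4 after a further quantile normalization 3 without the first day 7 or the second day 17 array, and 1 (with 2 falls) in the joint estimate over both arms.

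Pluripotency genes moved in both directions. Of 16 measured naive genes (24 listed) 7 fell and 5 rose; 3 rose without the first day 7 array, and 3 fell and 1 rose in the joint estimate over both arms. Nanog, which holds stem cells in the naive state, was at 10.14 and 10.26 at day 7 and 7.36 and 7.42 at day 17. It fell by 2.81 ± 0.16 (adjusted p = 1.76e-08), having been at 13.92 at day 0, and ended below 8.07. Sox2 was at 10.73 and 10.90 at day 7 and 9.55 and 9.58 at day 17 and fell by 1.25 ± 0.10. Klf2, a factor of the naive state, fell by 1.04 ± 0.12, Gdf3 by 0.84 ± 0.11, Esrrb by 0.62 ± 0.10, Fgf4 by 0.58 ± 0.10 and Tfcp2l1 by 0.41 ± 0.11. Pou5f1, which encodes Oct4, did not pass: it was at 13.57 and 13.72 at day 7 and 13.76 and 13.84 at day 17, and the difference was 0.15 ± 0.11 (adjusted p = 0.319). Klf4 rose by 0.68 ± 0.10, the RNA-binding protein gene Lin28a by 0.57 ± 0.11, Klf5 by 0.47 ± 0.10, Tbx3 by 0.47 ± 0.11 and Fbxo15 by 0.39 ± 0.10. The list median was -0.09.

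Of 10 measured genes of the primed epiblast 5 fell and none rose at an adjusted p under 0.05 in limma (0 of 10 higher at an unadjusted p under 0.05), and 3 fell in the joint estimate over both arms. Lefty1, a secreted inhibitor of Nodal, was at 11.46 and 11.76 at day 7 and 8.71 and 8.43 at day 17 and fell by 3.04 ± 0.14. It had been at 9.51 at day 0, so that its high values were those of day 7. Lefty2 fell by 1.08 ± 0.11 and Nodal itself by 0.63 ± 0.10. The Wnt mediator Lef1 fell by 1.59 ± 0.11 and Dnmt3b, a de novo DNA methyltransferase, by 1.00 ± 0.12. The epiblast marker Fgf5 read 0.16 ± 0.10 (adjusted p = 0.296).

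Germline and meiosis genes fell in 9 of 20 measured cases and rose in none at an adjusted p under 0.05 in limma (0 of 20 at an unadjusted p under 0.05); 5 fell in the joint estimate over both arms. Tex15, needed in meiosis and for silencing of transposons in male germ cells, was at 11.68 and 11.80 at day 7 and 7.63 and 7.88 at day 17 and fell by 3.99 ± 0.11. At day 0 it had read 13.60, above both day 7 arrays. Dazl, an RNA-binding protein of germ cells, fell by 1.66 ± 0.14, the meiotic cohesin subunit Smc1b by 1.42 ± 0.19, Tex19.1 by 1.39 ± 0.19 and the helicase Ddx4 by 1.00 ± 0.12. All 5 ended below 8.07. Rhox5, a homeobox gene that is active in extraembryonic tissue, did not pass, at -0.19 ± 0.10 (adjusted p = 0.194).

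Among signalling responses the targets of ERK fell as a group, in 13 of 20 cases with 1 rise and a list median of -0.72; 7 fell and 0 rose in the joint estimate over both arms. ERK is the kinase that MEK activates, and MEK was the target of PD0325901 in the starting medium. Any link between that inhibitor and the change from day 7 to day 17 was not tested. Fosl1, an AP-1 subunit, was at 12.10 and 11.87 at day 7 and 8.33 and 8.71 at day 17 and fell by 3.46 ± 0.16, back to its day 0 value of 8.69. Myc fell by 2.76 ± 0.10, with 12.33 and 12.26 at day 7 and 9.47 and 9.59 at day 17. The immediate early gene Egr1 fell by 1.73 ± 0.11, Ier3 by 1.44 ± 0.11 and Junb by 1.00 ± 0.11. ETV factors, which carry FGF signals, fell as well, Etv5 by 1.57 ± 0.11, Etv1 by 0.91 ± 0.11 and Etv4 by 0.85 ± 0.12. Of the feedback phosphatases Dusp5 fell by 0.93 ± 0.11 and Dusp6 by 0.80 ± 0.11, while Dusp4 read -0.28 ± 0.10 (adjusted p = 0.0704). The Sprouty and Spred genes gave 1 fall, that of Spry4 by 0.39 ± 0.11, among 5 measured. Cyclin D1 (Ccnd1) was the rise, by 0.72 ± 0.12.

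The other pathways moved less. Responses to LIF through JAK and STAT gave 1 fall and 1 rise among 13 genes (1 fall and 2 rises without the second day 7 array, 3 falls and 1 rise after a further quantile normalization): Socs1 fell by 0.70 ± 0.12 and Cish rose by 0.48 ± 0.11. Socs3, a main feedback inhibitor of the LIF receptor, held at 13.11 and 13.30 at day 7 and 13.46 and 13.45 at day 17, a difference of 0.24 ± 0.10 (adjusted p = 0.11). Of 9 Wnt target genes 3 fell and 1 rose (2 without the second day 7 array), with Tcf7 down by 0.72 ± 0.11 and the inhibitor Dkk1 up by 0.53 ± 0.10; Axin2, a direct target, read 0.09 ± 0.10 (adjusted p = 0.555). Of 11 genes of the BMP response 3 fell and 2 rose. The ligand Bmp4 fell by 1.69 ± 0.11, with 11.68 and 11.91 at day 7 and 10.17 and 10.05 at day 17, whereas the direct target Id1 read -0.12 ± 0.10 (adjusted p = 0.415) and Id3 0.01 ± 0.10 (adjusted p = 0.954). Bambi, a decoy receptor, rose by 0.72 ± 0.11 and Id4 by 0.57 ± 0.10.

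Receptors and ligands of growth factors rose in 7 and fell in 7 of 24 cases. Pdgfra, the PDGF receptor that marks the hypoblast, was at 13.48 and 13.59 at day 7 and 13.98 and 14.00 at day 17 and rose by 0.46 ± 0.10, whereas its ligand Pdgfa fell by 0.99 ± 0.12 and Pdgfrb by 0.72 ± 0.11. Igf1 was at 8.57 and 8.85 at day 7 and 9.71 and 9.72 at day 17, rose by 1.00 ± 0.11 and reached 11.39 ± 0.00 (SD, n = 2) at day 32, while its receptor Igf1r fell by 0.92 ± 0.11. Fgf10 rose by 0.93 ± 0.11, Fgfr3 by 0.83 ± 0.10 and Erbb2 by 0.71 ± 0.13, and Erbb3 fell by 1.11 ± 0.17. The EGF receptor Egfr read 7.85 and 7.80 at day 7 and 7.72 and 7.62 at day 17, below 8.07 on all 4 arrays.

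Among regulators of the hypoblast small rises outnumbered falls. Of 12 measured genes (13 listed) 8 rose, each by less than 1, and 3 fell, 1 of them (Cited1) by more than any rise, with a list median of 0.46. In the joint estimate over both arms 2 rose and 0 fell, with a median of 1.14. After a further quantile normalization 7 rose and 3 fell with a median of 0.33, and without the first day 7 array 7 rose and 3 fell. Gata6, the factor that sets the hypoblast fate, was at 13.99 and 14.16 at day 7 and 14.66 and 14.70 at day 17 and rose by 0.60 ± 0.10 (adjusted p = 7.88e-04). Gata4 was at 13.86 and 14.02 at day 7 and 14.44 and 14.46 at day 17, a rise of 0.51 ± 0.10. Sox17 rose by 0.66 ± 0.11, Foxa2 by 0.70 ± 0.10 and Sox7 by 0.45 ± 0.11. In each of these 5 genes both day 17 arrays lay above both day 7 arrays, an order that 47.2% of all genes showed. Foxq1 rose most, by 0.98 ± 0.10, with 11.79 and 11.77 at day 7 and 12.73 and 12.78 at day 17. Hnf4a, which also acts in liver, was up by 0.46 ± 0.11 and reached 10.31 ± 0.10 (SD, n = 2) at day 32. The falls were those of Cited1, by 1.31 ± 0.11, the homeobox gene Hhex, by 0.60 ± 0.10, and Grb10, an imprinted adaptor, by 0.45 ± 0.11.

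Basement membrane genes rose by similar small amounts, 10 of 13 measured with 1 fall and a median of 0.40. The count was 6 after a further quantile normalization, with a median of 0.28, and 5 without the first day 7 array, with a median of 0.36. It was 4 without the second day 17 array, with a median of 0.35. In the joint estimate over both arms it was 1, though the median there was 1.10. The list median was 2.14 in the feeder arm, and 12 of the 13 genes changed differently between the arms. Col4a1, a chain of type IV collagen, was at 14.31 and 14.49 at day 7 and 14.95 and 14.98 at day 17 and rose by 0.57 ± 0.10. Laminin chains rose as well, Lama1 by 0.44 ± 0.10 and Lamc1 by 0.40 ± 0.10. The collagen chaperone Serpinh1 rose by 0.58 ± 0.10, and the lysyl hydroxylases Plod1 and Plod2, which prepare collagen for cross-linking, rose by 0.68 ± 0.10 and 0.77 ± 0.10. Lama5, the α chain of other epithelial laminins, was the exception, with 10.91 and 11.14 at day 7 and 9.67 and 9.68 at day 17 and a fall of 1.35 ± 0.11.

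Of 18 genes of uptake and the lysosome 8 rose and 2 fell; after a further quantile normalization 6 rose and 5 fell, and in the joint estimate over both arms 5 rose and 1 fell. The endocytic receptor cubilin (Cubn) rose by 0.69 ± 0.12, its partner megalin (Lrp2) by 0.64 ± 0.11, amnionless (Amn), which holds cubilin in the membrane, by 0.46 ± 0.10 and the adaptor Dab2 by 0.51 ± 0.10. The lysosomal membrane receptor Scarb2 rose by 0.95 ± 0.11. Cathepsin D (Ctsd) fell by 1.51 ± 0.10, with 13.80 and 13.91 at day 7 and 12.31 and 12.37 at day 17, and legumain (Lgmn) by 1.10 ± 0.10.

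Genes of the 2 branches of the extraembryonic endoderm were listed apart. Of 22 visceral endoderm genes 5 rose and none fell at an adjusted p under 0.05 in limma (0 of 22 lower at an unadjusted p under 0.05), and their median of 0.13 was close to the 0.11 of all genes. The rises were 3 without the second array of either day and 1 in the joint estimate over both arms. Alpha-fetoprotein (Afp) read 8.53 and 8.19 at day 7 and 8.42 and 8.36 at day 17 and transthyretin (Ttr) 7.73 and 7.97 at day 7 and 7.75 and 8.02 at day 17, Ttr below the 8.07 floor on both days and Afp just above it. Between 8 and 10 of the 22 genes read below 8.07 on each of the 4 arrays. The signal Ihh, made by the visceral endoderm, rose by 0.64 ± 0.10, with 10.84 and 11.02 at day 7 and 11.58 and 11.56 at day 17, and Apoe by 0.53 ± 0.10. Of 16 parietal endoderm genes 8 rose and 5 fell, against 0 and 1 in the joint estimate over both arms. Pth1r, the parathyroid hormone receptor, was at 13.17 and 13.29 at day 7 and 13.86 and 13.94 at day 17 and rose by 0.67 ± 0.10, Srgn, a proteoglycan core protein, by 0.37 ± 0.10, vimentin (Vim) by 0.91 ± 0.10 and Thbd by 0.69 ± 0.10. The falls were those of Tfpi, Procr and Plat, given above, of Krt19 by 0.92 ± 0.10 and of Snai1 by 0.33 ± 0.10.

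Genes that bring in, store and break down retinol rose in 8 of 14 measured cases and fell in 1, with a median of 0.35. Stra6, the retinol uptake receptor, was at 12.42 and 12.48 at day 7 and 13.38 and 13.42 at day 17 and rose by 0.95 ± 0.10. Lrat, which stores retinol as esters, rose by 1.00 ± 0.15 with 7.37 and 7.25 at day 7 and 8.55 and 8.07 at day 17, near the floor. Rdh10, which oxidizes retinol to retinal, rose by 0.84 ± 0.12. The retinoic acid receptor Rara rose by 0.47 ± 0.10, and Cyp26a1, which degrades retinoic acid, by 0.39 ± 0.10; the latter did not pass after a further quantile normalization or without the first array of either day. At day 32 the means were lower again than at day 17, for Stra6 12.38 ± 0.11 (SD, n = 2), for Rdh10 10.51 ± 0.22 (SD, n = 2), for Lrat 7.44 ± 0.20 (SD, n = 2) and for Cyp26a1 9.67 ± 0.04 (SD, n = 2). The 8 rises were 6 after a further quantile normalization and 5 without the first day 7 array or either day 17 array. Without the dimmest 25% of genes 8 of the 14 were left, of which 5 rose and 1 fell. In the joint estimate over both arms they were 2, with a median of 0.12.

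Of the 15 largest rises Tspan8 and Krt4 belonged to the list of epithelial junctions and keratins. Cmahp, listed under the symbol of a CMP-sialic acid hydroxylase pseudogene, was at 8.62 and 8.79 at day 7 and 11.31 and 11.44 at day 17 and rose by 2.66 ± 0.11 (adjusted p = 5.15e-10), or 6.34-fold. Pga5, a pepsinogen, was at 9.64 and 9.48 at day 7 and 11.84 and 11.87 at day 17, a rise of 2.30 ± 0.12. Galnt3, which starts O-linked glycosylation, rose by 2.16 ± 0.12 and the tetraspanin Tspan8 by 2.04 ± 0.15. For these 4 genes the day 0 array read 7.06, 8.58, 8.16 and 6.60 in the same order. Bpifb6 rose by 1.85 ± 0.12, Sh3gl3, an endophilin, by 1.77 ± 0.10, the guidance factor Sema3c by 1.75 ± 0.11, cardiac troponin C (Tnnc1) by 1.69 ± 0.11 and keratin 4 (Krt4) by 1.58 ± 0.14. The list of 15 was completed by the aminopeptidase Enpep (1.55 ± 0.11), Ribc2 (1.46 ± 0.13), the sialyltransferase St8sia3 (1.46 ± 0.10), Pdzk1ip1 (1.46 ± 0.11), caveolin 1 (Cav1, 1.35 ± 0.11) and Bmp6 (1.34 ± 0.10). Their later levels parted. Sh3gl3 went on to 12.52 ± 0.09 (SD, n = 2) at day 32, Krt4 to 11.51 ± 0.11 (SD, n = 2) and Bpifb6 to 12.27 ± 0.16 (SD, n = 2), while Tspan8 was back at 8.80 ± 0.22 (SD, n = 2) and Tnnc1 at 10.18 ± 0.01 (SD, n = 2). In 10 of the 15, and in 44 of the 66 genes that rose by at least 1, the day 32 mean was below that of day 17. Both sets were chosen by high day 17 values against day 7, which by itself favours a lower later mean. The share over all genes was not counted.

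**Figure D3:**
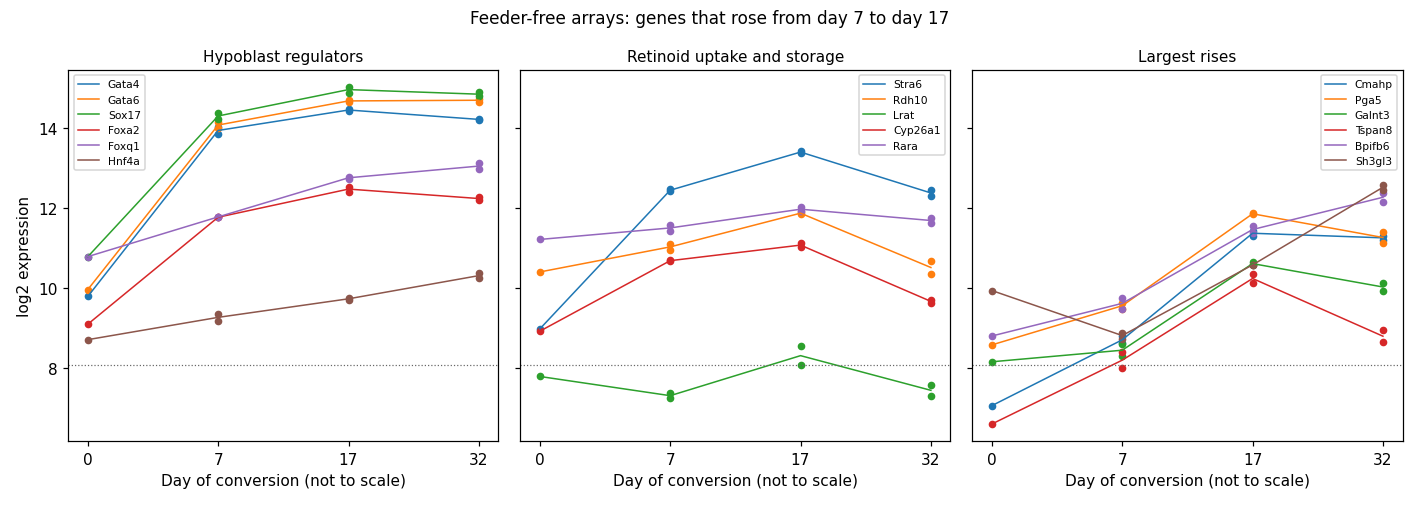
Log2 expression on each feeder-free array (points) and the mean of each day (lines) for hypoblast regulators, retinoid genes and the 6 genes with the largest rises, at days 0, 7, 17 and 32; the dotted line marks 8.07. The hypoblast regulators gain less than 1 from day 7 to day 17, the 4 retinoid genes Stra6, Rdh10, Lrat and Cyp26a1 are highest at day 17, and Sh3gl3 and Bpifb6 are highest at day 32.

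Epithelial and mesenchymal genes moved in mixed ways. Of 19 genes of epithelial junctions and keratins 9 fell and 4 rose, whereas 1 fell and 3 rose in the joint estimate over both arms. The plakophilin Pkp2, a desmosome protein, was at 12.46 and 12.48 at day 7 and 9.99 and 10.10 at day 17 and fell by 2.42 ± 0.12, and claudin 4 (Cldn4) fell by 2.18 ± 0.11. The simple keratins Krt18, Krt8 and Krt7 fell by 1.16 ± 0.10, 0.80 ± 0.10 and 0.96 ± 0.11, whereas Krt4 and claudin 6 (Cldn6, by 0.62 ± 0.11) rose. E-cadherin (Cdh1) read -0.05 ± 0.11 (adjusted p = 0.759) and Epcam 0.14 ± 0.10 (adjusted p = 0.378). Of 14 mesenchymal genes 4 rose (1 in the joint estimate), among them calponin (Cnn1) by 0.98 ± 0.10 and N-cadherin (Cdh2) by 0.79 ± 0.11, and 2 fell, fibronectin (Fn1) by 1.49 ± 0.10 and Snai1, with 1 fall left when any 1 array of day 7 or day 17 was omitted. Of 14 fibroblast genes 1 rose, Fbln1, by 0.59 ± 0.10, and 1 fell, Pdgfrb. The mean level of the fibroblast list ran from 8.60 to 8.73 over the 4 arrays, against 9.45 on the feeder array of day 7, and Col1a1 read 10.04 and 9.57 at day 7 and 9.84 and 9.95 at day 17 and Col3a1 9.25 and 9.11 at day 7 and 9.08 and 9.12 at day 17. Genes of mesendoderm and mesoderm gave 1 fall in 7, Kdr, by 0.70 ± 0.11, and those of the neuroectoderm 1 rise in 7, Nes, by 0.55 ± 0.11. Without the dimmest 25% of genes 5 of the mesendoderm and mesoderm genes were left, with 1 rise and 0 falls.

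Imprinted genes fell in 8 of 20 measured cases and rose in 4; the rises were 2 after a further quantile normalization and without the first day 7 or the second day 17 array, and 0 in the joint estimate over both arms. Mest, a paternally expressed growth gene, fell by 1.83 ± 0.10, with 12.47 and 12.55 at day 7 and 10.67 and 10.69 at day 17. The maternally expressed cell cycle inhibitor Cdkn1c, a growth brake of the placenta, fell by 1.65 ± 0.11, the sarcoglycan gene Sgce by 1.00 ± 0.10 and the noncoding H19 by 0.99 ± 0.10. Phlda2, which restrains placental growth, rose by 0.39 ± 0.10 and Plagl1 by 0.54 ± 0.10. Of 7 enzymes of DNA methylation 1 fell (Dnmt3b) and 2 rose, Dnmt3l by 0.40 ± 0.11 and Tdg by 0.36 ± 0.10; neither passed after a further quantile normalization, without the first day 7 array or without the second day 17 array.

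Cell cycle and replication genes gave 4 rises and no fall among 24 at an adjusted p under 0.05 in limma (1 lower at an unadjusted p under 0.05), with a median of 0.18 against 0.11 over all genes. Cyclin D1, given above, and cyclin E1 (Ccne1), by 0.48 ± 0.10, rose, as did the cell cycle inhibitors Cdkn1a, by 0.34 ± 0.10, and Cdkn1b, by 0.32 ± 0.11, and the replication helicase gene Mcm2 read 0.16 ± 0.10 (adjusted p = 0.295). The count became 2 rises and 2 falls after a further quantile normalization, 2 rises and 0 falls without either day 17 array, 3 rises and 1 fall without the first day 7 array and 1 rise in the joint estimate. Cholesterol synthesis gave 3 rises in 13, but 1 after that normalization, in the joint estimate and without the first day 7 or the second day 17 array, among them Cyp51 by 0.51 ± 0.10. Of 18 glycolysis genes 3 fell and 3 rose, while 7 fell and 1 rose after that normalization and 3 fell and 0 rose without the first day 7 array. With the second day 7 array left out 1 fell and 3 rose, with the first of day 17 left out 1 fell and 2 rose, and with the second 1 fell and 0 rose; the glucose transporter Slc2a1 fell by 0.98 ± 0.10. Amino acid transport split within the family: of 22 genes 5 fell and 6 rose, with 3 rises without the first day 7 or the second day 17 array and 2 in the joint estimate over both arms. Slc7a3, a transporter of cationic amino acids, was at 12.03 and 12.06 at day 7 and 8.70 and 8.83 at day 17 and fell by 3.29 ± 0.10, Slc7a8 by 1.57 ± 0.12 and Slc7a5 by 0.96 ± 0.12. Slc43a1 rose by 1.03 ± 0.11 and Slc1a4 by 0.73 ± 0.10. Among 16 genes of the interferon response and antigen presentation 2 fell and 3 rose. The count was 1 rise and 1 fall without the first day 7 array, 4 rises and 1 fall without the second, 1 rise and 2 falls without the first day 17 array and in the joint estimate over both arms, and 1 rise and 3 falls without the second day 17 array. In that list β2-microglobulin (B2m), the light chain of class I molecules, was at 13.78 and 13.82 at day 7 and 12.10 and 12.06 at day 17, a fall of 1.72 ± 0.10, and the immunoproteasome gene Psmb8 rose by 0.65 ± 0.12.

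**Figure D4:**
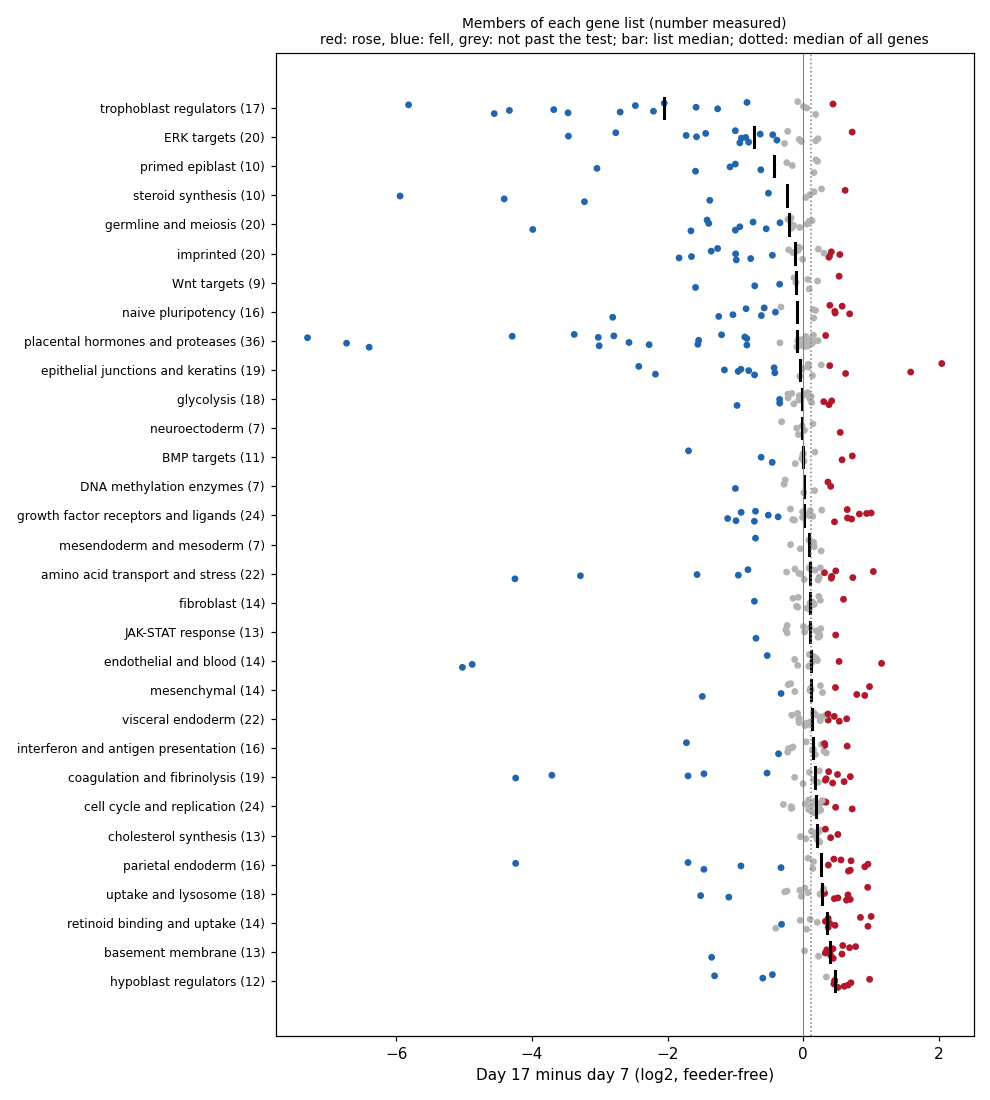
Day 17 minus day 7 in the feeder-free arm, on the log2 scale, for every measured member of the 31 gene lists (points), ordered by the list median (black bars), with the number measured in brackets. Red points rose and blue points fell at an adjusted p under 0.05, grey points did not pass, and the dotted line is the median of all genes, 0.11; the trophoblast list has the lowest median, -2.05, and the hypoblast list the highest, 0.46.

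The arm that began on feeder cells gave the same interval on independent arrays, 1 per day, so its own values carry no spread. Over the 14506 genes, which are no independent replicates, the changes of the arms had a correlation of 0.558. Of the 327 genes that fell by at least 1 in the feeder-free arm 281 (85.9%) were lower at day 17 in the feeder arm too. Over all genes 39.6% were lower there. Of the 66 that rose by at least 1, 64 were higher there, against 8766 of all 14506 genes. The sizes differed: the median of the 327 was -1.59 in the feeder-free and -1.01 in the feeder arm, and that of the 66 was 1.13 and 2.09 in the same order. A test of the difference itself called 2852 of all genes (19.7%), 251 of the 327 and 45 of the 66. The 327 and the 66 were chosen by their feeder-free change, which enters this test too, so that their medians and shares are partly set by that choice and are given as a description. The test assumes that the single feeder arrays vary like the feeder-free pairs.

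The 5 genes whose feeder-free change was lowest against the feeder change were Plet1, Prl7a3, Mmp1, Adm and Cyp17a1, and for each the feeder array of day 7 stood below both feeder-free ones. Day 7 values enter the difference by which these genes were chosen, so that this order is partly set by the choice. Plet1 read 11.93 there at day 7 and 11.02 at day 17, a change of -0.91. The feeder-free change minus the feeder change was -4.91 ± 0.23 (adjusted p = 2.01e-08). For Prl7a3 the difference was -4.42 ± 0.17, with a feeder array of 7.72 at day 7. For Mmp1 it was -4.24 ± 0.18 and for Cyp17a1 -4.01 ± 0.18. Adm, adrenomedullin, a peptide made by trophoblast and endothelium, was at 13.17 and 13.35 at day 7 and 9.50 and 9.58 at day 17 in the feeder-free arm, a fall of 3.72 ± 0.10, and at 10.73 and 11.10 in the feeder arm (adjusted p = 2.01e-08 of the difference). Elf5 and Lcp1 were lower at day 17 in both arms, with falls of 4.56 ± 0.18 and 5.02 ± 0.14 in the feeder-free arm and changes of -3.60 and -4.55 in the feeder arm, and a difference was not shown (adjusted p = 0.0506 for Elf5 and adjusted p = 0.225 for Lcp1).

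The 5 genes at the opposite end had lower day 7 values in the feeder-free arm than in the feeder arm, an order that their choice by the same difference partly sets. Hey2, a Notch target, was at 8.07 and 8.63 at day 7 and 7.65 and 7.33 at day 17 in the feeder-free arm, a fall of 0.86 ± 0.17, and went from 11.78 to 7.06 in the feeder arm (difference 3.87 ± 0.29, adjusted p = 5.32e-07). Ly6c changed by -5.75 in the feeder arm and fell by 1.95 ± 0.12 in the feeder-free arm. Gdf3, a TGF-β ligand of the naive state, changed by -4.53 in the feeder arm and fell by 0.84 ± 0.11 in the other. The muscarinic receptor gene Chrm2 changed by -4.10 there and fell by 0.74 ± 0.11 in the feeder-free arm. Thbs1, thrombospondin 1, which fibroblasts make in quantity, went from 12.96 to 9.41 in the feeder arm and read 8.73 and 8.76 at day 7 and 8.91 and 8.88 at day 17 in the other, a difference of 0.15 ± 0.10 (adjusted p = 0.288). Gata4 and Gata6 rose by less in the feeder-free arm: the change of Gata4 was 3.18 in the feeder arm and that of Gata6 3.22, and both differed between the arms (adjusted p = 1.97e-07 and adjusted p = 2.66e-07). The median of the hypoblast list was 2.31 in the feeder and 0.46 in the feeder-free arm. The list medians of the trophoblast regulators, -0.75 in the feeder and -2.05 in the feeder-free arm, stood in the opposite order. On the feeder arrays the mean level of the 14 fibroblast genes was 9.45 at day 7 and 8.84 at day 17, and its part in these differences was not tested.

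**Figure D5:**
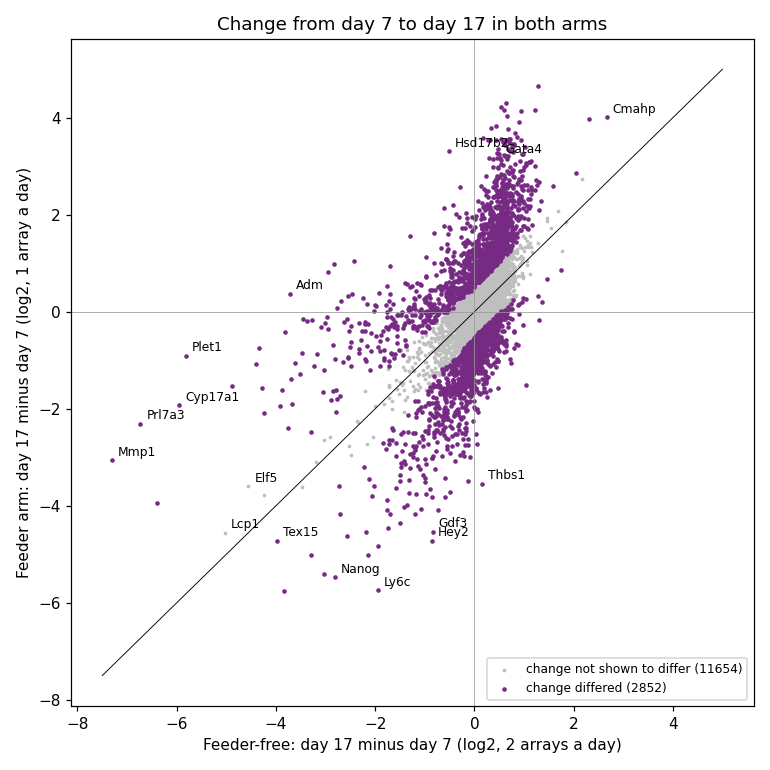
Change from day 7 to day 17 on the log2 scale for 14506 genes, in the feeder-free arm (horizontal axis, 2 arrays a day) and in the feeder arm (vertical axis, 1 array a day). Purple points are the 2852 genes whose change differed between the arms at an adjusted p under 0.05, and the line marks equal change; Mmp1, Prl7a3 and Plet1 lie above the line, with larger falls in the feeder-free arm, and Ly6c, Gdf3 and Hey2 below it.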

How the data were processed

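The authors deposited 1 table of log2 expression values for each probe set; the submitters' processing notes name RMA, and version, software and options are not given in the sources used here. All 11 columns share a median of 8.97 while upper quartiles run from 10.8 to 11.0, and RMA draws low values together. Of 29214 rows, 15310 had 1 gene symbol in the platform annotation, 323 several and 13581 none; gene IDs of 15279 rows matched RefSeq (GRCr8), used for names and promoters. For the 527 genes with several rows the one brightest on average was kept, leaving 14506 genes, and dim genes were not filtered out.

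limma 3.58.1 in R 4.3.3 (lmFit, eBayes) fitted a mean for every 1 of the 8 groups of 11 arrays. The 3 residual degrees of freedom are those of the replicate pairs at feeder-free days 7, 17 and 32. Adjusted p values are Benjamini-Hochberg values over all genes tested. The calculation was tested on simulated data. The comparison and the 31 lists (473 distinct measured genes) were chosen with earlier results of these data known, and most lists were in use before. Named were the 15 largest changes each way, up to 5 called genes per list (2 where none passed), 7 set genes and 5 each way for the culture difference; further list members were named for their role after their values were seen. Missing list members are not analysed here. Figures were drawn with matplotlib 3.10.9.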

Additional observations from a re-analysis of the deposited data

Results flagged for a closer look

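The change from day 7 to day 17 differed between the arms for 2852 genes by the interaction test in limma (adjusted p under 0.05). For the genes reported by rule, the feeder-free change minus the feeder change was 3.87 for Hey2, 3.80 for Ly6c, 3.70 for Thbs1, 3.69 for Gdf3 and 3.36 for Chrm2, and -4.91 for Plet1, -4.42 for Prl7a3, -4.24 for Mmp1, -4.10 for Adm and -4.01 for Cyp17a1. Among the pluripotency genes it was 1.11 for Pou5f1, 2.66 for Nanog and 1.66 for Sox2. Among the hypoblast genes it was -2.67 for Gata4, -2.62 for Gata6, -2.49 for Sox17 and -2.81 for Pdgfra. Pou5f1 read 13.94 and 12.98 on the feeder arrays of days 7 and 17, beside a feeder-free difference of 0.15 ± 0.11 (adjusted p = 0.319).

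Rows of the table without a gene symbol lie outside the comparison. In a fit over all 29214 rows 1005 of the 13581 such rows changed, 606 upward and 399 downward, 170 of them by at least 1 on the log2 scale.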

How the results depend on the processing

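The count of changed genes, 3458, was 1850 in a joint estimate over both arms (additive day and culture terms) and 393 with a change of at least 1. Leaving out 1 array gave 2281 to 3424, the lowest without the first day 7 array, where the split was 1282 up and 999 down. The share of rises was 69.1%, 56.1% after a further quantile normalization and 56.2% without that array. The count of genes that changed differently between the arms, 2852, was 1264 with a difference of at least 1 and 2717 to 2812 with 1 array left out; its share of higher feeder-free changes was 45.6%, and 59.6% with arrays centred on the median of the genes. The other alternatives, namely the 4 arrays alone, no dimmest 25% of genes, the mean of rows, all rows and eBayes with trend and robust, kept both counts within 1.5 times where they applied. In the joint estimate the change of Pou5f1 (-0.22), the change of Tagln (-0.0241) and the change of Thbs1 (-1.08) had the opposite sign. Same-numbered arrays did not deviate together (correlations 0.03, -0.20 and -0.10), so no pairing by number was seen. Array noise can hide a shared culture, and this check cannot exclude one. With a replicate block 3387 genes changed and 2845 differed between the arms. Signal near the floor limits what can be said of dim genes.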

Other observations

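Several genes outside the lists, all with large falls, were chosen after their values were seen. Cd24, a surface glycoprotein, fell by 3.88 ± 0.13, with 15.09 and 15.17 at day 7 and 11.17 and 11.34 at day 17. Ass1, the enzyme that makes argininosuccinate, fell by 3.75 ± 0.11 from 12.74 ± 0.12 (SD, n = 2) at day 7, after 13.92 at day 0. Cmtm5 fell by 3.82 ± 0.11, Plac8 by 3.62 ± 0.12, the small heat shock protein gene Hspb1 by 3.28 ± 0.11 and the endothelial adhesion gene Esam by 3.28 ± 0.10. Ervfrd-1, an envelope gene of retroviral origin of the syncytin kind, was at 11.12 and 10.80 at day 7 and 8.10 and 8.03 at day 17 and fell by 2.89 ± 0.17. The metal-binding protein gene Mt1 was at 14.91 and 14.89 at day 7 and 12.22 and 12.02 at day 17 and fell by 2.78 ± 0.10.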
